A study of Mus musculus with 9 samples.

Results

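The genes described here are 10 genes of the unfolded protein response and of protein folding in the endoplasmic reticulum (ER), out of 45808 genes in the count table: Hspa5, Hsp90b1, Calr, Pdia4, Pdia6, Xbp1, Atf4, Ddit3, Herpud1 and Dnajb9. All 10 rows were found by symbol. They were chosen by their function with earlier results of these libraries known, so their levels are a description and no test is read from them. RNA came from ICOS+ CD4 T cells, activated helper and regulatory T cells, sorted from MC38 tumours on day 12 after injection of the tumour cells, with 1 library per mouse. MC38 is a mouse colon carcinoma line, and every mouse was of the strain C57BL/6J. The groups were mice given anti-CTLA-4, mice given anti-PD-1 and mice labelled Control (n = 3 each). The sources used here give neither antibody clones and doses, nor what the Control mice received, nor the age of the mice. Each antibody was set against Control and against the other; CTLA-4 and PD-1 are inhibitory receptors of T cells.

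Proteins bound for the membrane or for secretion fold in the ER with the help of chaperones such as BiP (Hspa5), GRP94 (Hsp90b1) and calreticulin (Calr), and protein disulfide isomerases such as Pdia4 and Pdia6 form their disulfide bonds. When unfolded protein builds up, the sensors IRE1, PERK and ATF6 raise folding and degradation capacity through the transcription factors XBP1, ATF4 and cleaved ATF6, and prolonged stress adds CHOP (Ddit3). Lymphocytes use the pathway when they start to secrete, plasma cells most of all, and in tumours XBP1 and CHOP have been studied as limits on T cell function. Xbp1 is regulated by splicing of its mRNA and ATF4 by translation of its mRNA, so gene counts read only part of the activity of either.

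ER chaperone genes are the textbook case of promoters that share a response element. The windows below are shown because they hold the matches found in the members' promoters, taken from RefSeq on GRCm38.p6 over 300 bases, 250 before and 50 after each gene's start. All 10 members matched a promoter by symbol. The ER stress response element (ERSE) was searched on both strands as CCAAT and CCACG with 9 bases between them. ERSE-II was searched as ATTGG, any base, then CCACG, the core of the XBP1-bound UPRE as TGACGTGG, and the core of the ATF4-bound CARE as TGATGNAA. No base belonged to more than 1 match. Capitals mark the matches, 5′ to 3′ on the gene's strand.
Hspa5, chr2:34772020-34772048, plus strand: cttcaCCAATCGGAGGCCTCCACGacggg
Hsp90b1, chr10:86705530-86705664, minus strand: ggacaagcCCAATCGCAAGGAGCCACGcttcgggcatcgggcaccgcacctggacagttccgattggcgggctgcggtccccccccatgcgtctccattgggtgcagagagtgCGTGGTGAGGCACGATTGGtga
Calr, chr8:84847012-84847111, minus strand: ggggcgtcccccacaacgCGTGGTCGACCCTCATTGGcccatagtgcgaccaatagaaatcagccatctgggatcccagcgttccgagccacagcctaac
Pdia6, chr12:17266479-17266528, plus strand: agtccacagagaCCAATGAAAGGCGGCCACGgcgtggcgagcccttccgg
Herpud1, chr8:94386309-94386408, plus strand: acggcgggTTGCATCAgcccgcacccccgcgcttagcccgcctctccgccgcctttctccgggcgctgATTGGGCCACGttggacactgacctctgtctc

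An ERSE match lay in 4 of the 10 members' promoters, those of Hspa5, Hsp90b1, Calr and Pdia6, against 39 of 32851 promoters in all (0.119%). Hsp90b1 held a pair of them, in opposite directions. The Hspa5 match lay 65 to 47 bases before the RefSeq start, which falls inside the longer GENCODE model of the gene. Herpud1 held an ERSE-II match, found in 0.0365% of all promoters, and a CARE core on the opposite strand, found in 3.97%. The UPRE core, in 0.676% of all promoters, was in none of the 10 windows. The promoters of Pdia4, Xbp1, Atf4, Ddit3 and Dnajb9 held no match to these letters in this window. Among the other genes of the pathway lists described further on, Canx, Creld2, Derl3, Dnajc3, Ero1lb and Syvn1 held an ERSE match, 6 of the 83 that matched a promoter.

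**Figure D1:**
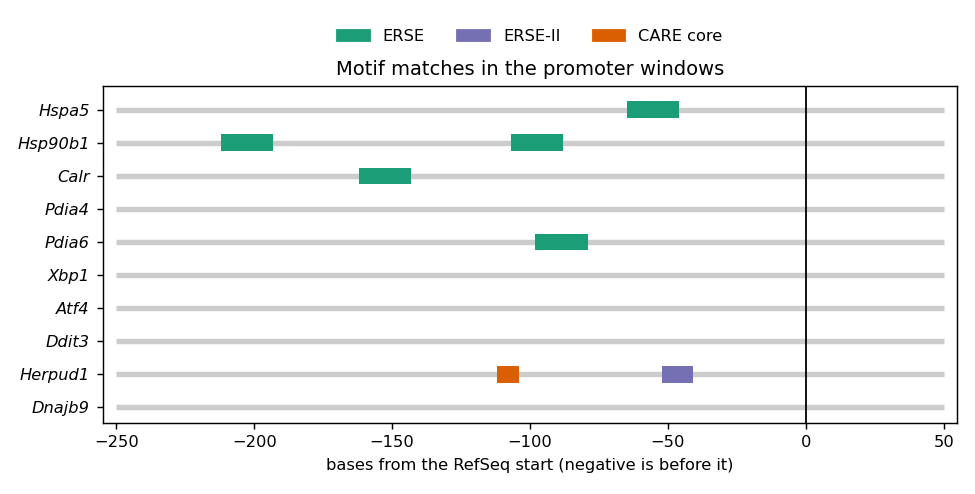
Positions of the motif matches in the promoters of the 10 genes, with distance from the RefSeq start in bases on the x axis, 1 grey line per promoter window and a coloured box per match. ERSE matches (green) lay in Hspa5, Hsp90b1, Calr and Pdia6, and Herpud1 held an ERSE-II match (purple) and a CARE core (orange).

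The libraries differed widely within groups. Gene counts summed to between 25530333 and 41508589 per library, and 2662 to 6309 genes reached 5 CPM (counts per 1000000 gene counts). Of the 7858 genes tested, 77.9% had fewer than 30 counts in 1 library and more than 1000 in another. Between libraries of a group a typical gene varied with a coefficient of variation of 1.84. With 1 amplified library per mouse, that spread holds differences between mice and differences arising in library preparation, which cannot be told apart. The library of anti-CTLA-4 replicate 2 differed most from the rest, with the fewest genes at 5 CPM. Of 10 T cell markers, 7 were at their lowest of all libraries in it, among them Cd4 at 24.5 CPM, Cd3e at 0.590 CPM, Icos at 507 CPM and Ptprc at 501 CPM, and 3 were at their highest (Cd3d at 696 CPM, Cd3g at 649 CPM and Trac at 632 CPM). Of 12 macrophage and monocyte markers, 6 were at their highest in it, led by Lyz2 at 1492 CPM and Tyrobp at 1874 CPM. The other 6 were higher in another library, with Adgre1 at 11.1 CPM, C1qb at 1.996 CPM, Apoe at 0.169 CPM, C1qa at 0.0844 CPM, Fcer1g at 0.0562 CPM and Cd14 at 0 in it. The 10 T cell markers summed to 3035 CPM in it and to 7136 to 9132 CPM in the other 8 libraries, and the 12 macrophage markers to 4753 CPM, against 193.5 to 990 CPM in the other 8. The 7 fibroblast markers, 3 of them at their highest there, summed to 1621 CPM in that library, and 674 CPM was the highest sum among the other 8. The other 4 fibroblast markers were higher in another library. In anti-CTLA-4 replicate 2 Sparc stood at 24.4 CPM, Pdgfra at 9.59 CPM, Dcn at 0.0281 CPM, its lowest of all libraries, and Lum at 0. Cd8a was at 0 in all 9 libraries, but Cd8b1 reached 125 CPM in anti-PD-1 replicate 3. Of 6 markers of epithelial or MC38 tumour cells, Krt8, Krt18, Krt19, Cdh1 and Krt20 were at 0 throughout. Epcam stood at 57.7 CPM in anti-PD-1 replicate 1 and at no more than 0.028 CPM in any other library. The plasma cell markers Jchain, Mzb1, Tnfrsf17 and Pou2af1 were at 0 throughout, although Igkc reached 131.5 CPM. The B cell marker Cd79a was also at 0 in all libraries, while Cd79b and Ms4a1 reached 31.5 and 32.3 CPM in Control replicate 2, and Ebf1 25.04 CPM in anti-PD-1 replicate 3 and 35.7 CPM in Control replicate 3. In bulk RNA, fewer cells of a type and less RNA per cell cannot be told apart. Scaling factors computed from the bulk of genes (TMM) were lowest in replicate 2 of anti-CTLA-4 (0.403) and replicate 2 of anti-PD-1 (0.833). They were 1.06 to 1.26 otherwise. TMM scaling thus raised CPM in the replicate 2 libraries of anti-CTLA-4 and anti-PD-1 and lowered it in the others. Both scalings are given for members whose overlap between groups changes with the scaling, and for some list genes. Most list genes are given in CPM only.

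Of the 10 genes, GRP94 and calreticulin were the only ones at 5 CPM or more in all 9 libraries, a level that 13.7% of the tested genes held throughout. Hsp90b1 (chromosome 10, 86690209 to 86705509, GRCm38), which folds integrins and Toll-like receptors, had 558, 191 and 586 CPM under anti-CTLA-4, 608.5, 708 and 417 CPM under anti-PD-1, and 616, 861 and 264 CPM in Control. The groups overlapped, with means of 445 ± 220.3 CPM under anti-CTLA-4, 578 ± 148 CPM under anti-PD-1 and 580.2 ± 300.2 CPM in Control (SD, n = 3 each). Its fitted log2 fold change was 0.10 (SE 0.92) for anti-CTLA-4 against Control and 0.28 (SE 0.92) for anti-PD-1 against Control. The opposite-strand gene 1810014B01Rik overlaps it and stood at 0 to 14.3 CPM. Gm15344, on the same strand, overlaps it by 977 bases and stood at 0 to 42.4 CPM. The count table is labelled first strand, but the setting used in counting is not stated. Whether reads shared with the opposite-strand gene were told apart is therefore unknown, and strand does not separate those shared with Gm15344.

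Calr (chromosome 8, 84841850 to 84846934), the lectin chaperone that retains unfolded glycoproteins, had 383, 182 and 503.8 CPM under anti-CTLA-4, 229.8, 404 and 355 CPM under anti-PD-1, and 489, 729 and 413 CPM in Control. Every anti-PD-1 library lay below every Control library in CPM, as did 7.33% of all tested genes, but the groups overlapped once TMM factors were applied, which put anti-PD-1 replicate 2 at 485 TMM-scaled CPM and the lowest Control library at 336. Its mean was 356 ± 162.5 CPM under anti-CTLA-4, 329.5 ± 89.8 CPM under anti-PD-1 and 544 ± 165 CPM in Control (SD, n = 3 each). The fitted log2 fold change was -0.07 (SE 1.04) for anti-CTLA-4 and -0.43 (SE 1.05) for anti-PD-1, each against Control.

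BiP transcripts were highest in anti-CTLA-4 replicate 2 and lowest in anti-PD-1 replicate 2. Hspa5 (chromosome 2, 34771970 to 34777547), the Hsp70 chaperone that also holds the stress sensors inactive, had 423, 679.9 and 117 CPM under anti-CTLA-4, 183, 0.786 and 87.6 CPM under anti-PD-1, and 137, 315 and 236.5 CPM in Control. The value of 0.786 CPM in anti-PD-1 replicate 2 rests on 26 counts, while the Hsp90b1 count in the same library was 23445. All 3 groups overlapped. Hspa5 made up 64.3% of the members' summed CPM in anti-CTLA-4 replicate 2 and 0.0540% in anti-PD-1 replicate 2, against 6.75% to 27.0% in the other 7 libraries.

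The fitted log2 fold change of Hspa5 was 1.96 (SE 1.19) for anti-CTLA-4 against Control, -1.26 (SE 1.16) for anti-PD-1 against Control and 3.22 (SE 1.25) for anti-CTLA-4 against anti-PD-1. Without anti-CTLA-4 replicate 2 the first of these was 0.39 and the last 1.68, so that library set much of their size. The second and the last also draw on anti-PD-1 replicate 2, at 0.786 CPM. Over all settings tried, the second ran from -2.33 to -0.68 and the last from 1.10 to 5.91. The sum of the 12 macrophage markers was also highest in anti-CTLA-4 replicate 2, as were 6 of them singly. The part of those markers in the Hspa5 level was not tested.

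**Figure D2:**
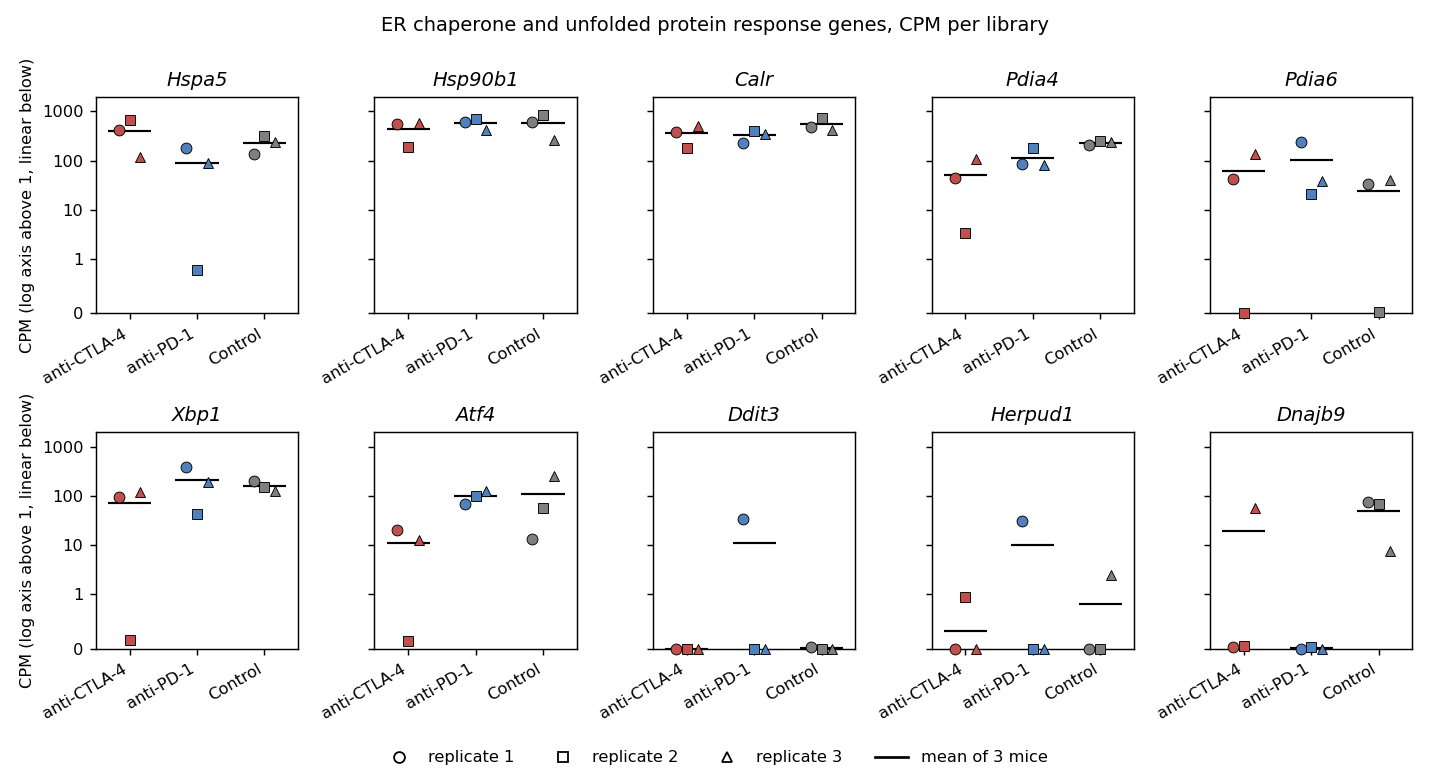
CPM of each of the 10 genes in each library, in anti-CTLA-4, anti-PD-1 and Control mice, on an axis that is logarithmic above 1 CPM and linear below. Points are libraries, symbols replicate numbers (with no sign found that they pair mice across groups) and bars group means. Hsp90b1 and Calr lie above 100 CPM in every library, and Ddit3, Herpud1 and Dnajb9 are at or near 0 in most.

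The disulfide isomerase Pdia4 had the narrowest spread of the 10 in Control mice relative to its level and was lower in every anti-CTLA-4 library. Pdia4 (chromosome 6, 47796141 to 47813430), also called ERp72, had 43.3, 3.35 and 107 CPM under anti-CTLA-4, 85.6, 179 and 79.8 CPM under anti-PD-1, and 204, 247 and 234 CPM in Control. In CPM all 6 libraries of antibody-treated mice lay below all 3 Control libraries. Of all tested genes, 10.4% lay so for anti-CTLA-4 and 7.33% for anti-PD-1. With TMM factors the anti-CTLA-4 libraries stayed below, at 38.5, 8.30 and 100.8 TMM-scaled CPM against 173, 196 and 190 in Control, but anti-PD-1 replicate 2 at 214.5 exceeded the Control libraries.

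Mean Pdia4 was 51.2 ± 52.2 CPM under anti-CTLA-4, 115 ± 55.5 CPM under anti-PD-1 and 228 ± 22.0 CPM in Control (SD, n = 3 each). The fitted log2 fold change was -1.92 (SE 1.91) for anti-CTLA-4 against Control and -1.40 without anti-CTLA-4 replicate 2. For anti-PD-1 against Control it was -0.65 (SE 1.86), and -1.38 without anti-PD-1 replicate 2. The standard errors, from a spread shared with all genes of the fit, are nearly as large as the changes or larger.

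Pdia6 (chromosome 12, 17266545 to 17284770), a disulfide isomerase that also acts on the IRE1 sensor, showed no such order. It had 42.3, 0 and 138 CPM under anti-CTLA-4, 242, 20.6 and 37.9 CPM under anti-PD-1, and 32.5, 0.0322 and 40.8 CPM in Control. The 0 in anti-CTLA-4 replicate 2 allows up to 0.0844 CPM, the level of 3 counts there, and the Control value of 0.0322 CPM is 1 count. The means were 60.1 ± 70.7 CPM under anti-CTLA-4, 100.2 ± 123 CPM under anti-PD-1 and 24.5 ± 21.6 CPM in Control (SD, n = 3 each), with SDs above or near the means.

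Of the transcription factors, Xbp1 (chromosome 11, 5520659 to 5525893), the IRE1 target that drives ER expansion, had 97.1, 0.169 and 119 CPM under anti-CTLA-4, 387, 42.2 and 192 CPM under anti-PD-1, and 206, 149.7 and 129 CPM in Control. Each anti-CTLA-4 library was below each Control library in CPM (10.4% of all tested genes), by a narrow margin between 119 and 129 CPM. With TMM factors anti-CTLA-4 replicate 3 stood at 112 and the lowest Control library at 104.6, so the groups overlapped. Counts do not separate spliced from unspliced Xbp1 mRNA.

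Atf4 (chromosome 15, 80255184 to 80257541), the effector of the integrated stress response, had 20.0, 0.141 and 12.4 CPM under anti-CTLA-4, 68.4, 100.9 and 128.5 CPM under anti-PD-1, and 13.0, 57.6 and 253 CPM in Control. Every anti-CTLA-4 library lay below every anti-PD-1 library, in CPM and in TMM-scaled CPM, as did 6.95% of all tested genes in CPM, while the Control libraries overlapped with both. Means were 10.9 ± 10.02 CPM under anti-CTLA-4, 99.3 ± 30.1 CPM under anti-PD-1 and 108 ± 128 CPM in Control (SD, n = 3 each). The fitted log2 fold change for anti-CTLA-4 against anti-PD-1 was -3.28 (SE 2.55), and -2.69 without anti-CTLA-4 replicate 2, whose Atf4 value rests on 5 counts.

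CHOP and Herpud1 transcripts were found mainly in anti-PD-1 replicate 1. Ddit3 (CHOP, chromosome 10, 127290774 to 127296288), the factor of prolonged ER stress, had 0, 0 and 0 CPM under anti-CTLA-4, 33.7, 0 and 0 CPM under anti-PD-1, and 0.0241, 0 and 0 CPM in Control. That is 859 counts in anti-PD-1 replicate 1 and 1 count in Control replicate 1, and libraries at 0 allow up to 0.08385 to 0.0985 CPM. The annotation holds a second gene model of the same name inside the first and the gene overlaps Mars, on the opposite strand, by 68 bases, so reads in those stretches may have been set aside as ambiguous, and the level is uncertain.

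Herpud1 (chromosome 8, 94386438 to 94395377), an ER membrane protein that helps the HRD1 ligase degrade misfolded proteins, had 0, 0.956 and 0 CPM under anti-CTLA-4, 30.75, 0 and 0 CPM under anti-PD-1, and 0, 0 and 2.43 CPM in Control. The value in anti-PD-1 replicate 1 comes from 785 counts. Xbp1 and Pdia6 were also highest in that library, which held 9 of the 10 genes at 5 CPM or more. Each of these rests on 1 mouse, so none is a difference between groups. Epcam, a marker of epithelial or MC38 tumour cells, was also highest in anti-PD-1 replicate 1, at 57.7 CPM. The part of such cells in these levels was not tested.

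Dnajb9 (chromosome 12, 44205559 to 44210326), a J-domain partner of BiP that restrains IRE1, had 0.0328, 0.0562 and 57.3 CPM under anti-CTLA-4, 0, 0.0302 and 0 CPM under anti-PD-1, and 74.2, 68.5 and 7.57 CPM in Control. Counts were 1, 2 and 1872 with anti-CTLA-4, 0, 1 and 0 with anti-PD-1, and 3079, 2129 and 271 in Control. All anti-PD-1 libraries were thus at or under the level of 3 counts, and all Control libraries above it. In both scalings these groups did not overlap, as for 7.33% of all tested genes in CPM and 6.52% in TMM-scaled CPM. Between anti-CTLA-4 and anti-PD-1 the CPM values did not overlap either, but the gap there lies within 1 to 2 counts and closed with TMM factors. Mean Dnajb9 was 19.1 ± 33.1 CPM under anti-CTLA-4, 0.0101 ± 0.0174 CPM under anti-PD-1 and 50.1 ± 36.9 CPM in Control (SD, n = 3 each).

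**Figure D3:**
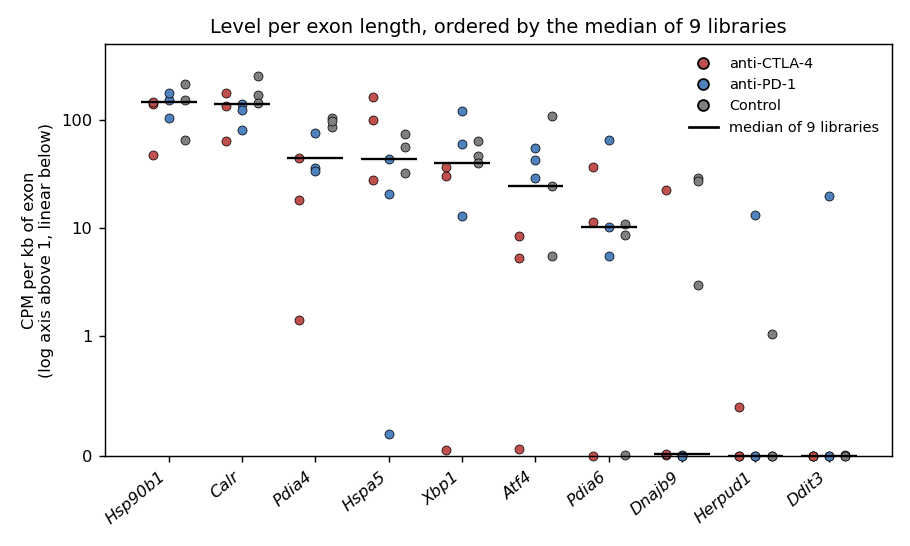
CPM per kb of exon (GENCODE M21) for each gene and library, ordered by the median of the 9 libraries (bars), with colours for anti-CTLA-4, anti-PD-1 and Control, on an axis logarithmic above 1. The medians run from 145 for Hsp90b1 and 140.2 for Calr to 0 for Herpud1 and Ddit3.

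Per exon length the order of the median levels was Hsp90b1 at 145 CPM per kb, Calr at 140.2, Pdia4 at 44.5, Hspa5 at 43.2, Xbp1 at 39.6, Atf4 at 24.4, Pdia6 at 10.1 and Dnajb9 at 0.0221, with Herpud1 and Ddit3 at 0. The ranges over libraries, 47.5 to 214 CPM per kb for Hsp90b1 and 63.2 to 253 for Calr, cover each other, so this pair is not ordered beyond its spread. The same holds for the neighbours from Pdia4 to Pdia6, whose lowest libraries lay between 0 and 1.395 CPM per kb and whose highest between 64.6 and 161. In CPM summed over the 10 genes, the anti-CTLA-4 libraries held 1567, 1058 and 1641, the anti-PD-1 libraries 1869, 1455 and 1298, and the Control libraries 1772, 2427 and 1580. The number of members at 5 CPM or more was 7, 3 and 8 with anti-CTLA-4, 9, 6 and 7 with anti-PD-1, and 8, 7 and 8 in Control.

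The members did not vary as a block. Over 9 libraries, the 45 pairwise Pearson correlations of log2(CPM + 1) had a median of 0.19 and ran from -0.56 to 0.93, with 29 positive. The highest was between Ddit3 and Herpud1, and rests on anti-PD-1 replicate 1. Xbp1 and Pdia4 followed at 0.81, which became -0.13 without anti-CTLA-4 replicate 2, and Calr and Pdia4 at 0.78, which became 0.56. The mean level of the 10 genes correlated at 0.85 with the number of genes a library held at 5 CPM, and at 0.55 without anti-CTLA-4 replicate 2. All these values share library and depth, and are given as description.

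Among the 3504 tested genes that averaged 50 CPM or more, the 5 whose log2(CPM + 1) followed the members' mean most closely over the 9 libraries were the kinase gene Jak3, at a Pearson correlation of 0.988, the cohesin-associated Pds5b at 0.973, Gramd1a at 0.955, the SLAM receptor Cd84 at 0.951 and the chromatin remodeller Smarca4 at 0.944. Without anti-CTLA-4 replicate 2 they stood at 0.962, 0.917, 0.855, 0.842 and 0.871. In that library these 5 genes stood at 15.7, 0.141, 0.225, 0.141 and 12.1 CPM, and the highest levels among all libraries were 169.5 to 446 CPM.

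In the fit over all genes, edgeR's quasi-likelihood test, at a Benjamini-Hochberg adjusted p under 0.05, called 29 genes (0.369%) for anti-CTLA-4 against Control, 6 (0.0764%) for anti-PD-1 against Control and 65 (0.827%) for anti-CTLA-4 against anti-PD-1. Of the 10 members, 9 passed the filter on low counts and Ddit3 did not. None of the 9 was called in any comparison. At an unadjusted p under 0.05 stood 0, 1 and 2 of the 9, beside 889, 472 and 1106 of all 7858 tested genes. DESeq2, which called 574, 421 and 852 genes in the same order, called Dnajb9 for anti-PD-1 against Control and for anti-CTLA-4 against anti-PD-1, and no other member. In each comparison it gave no adjusted p for 2283 of the 7858 genes, 2 of the 9 members among them. limma voom called no member. Because the members were selected with these results known, nothing is read from these counts.

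The same holds for libraries that do not overlap. In CPM, 2 of the 9 members lay lower in every anti-CTLA-4 than in every Control library (Xbp1 and Pdia4), against 10.4% of all tested genes, and none lay higher, against 1.57%. With TMM factors it was 1 lower (Pdia4, background 8.23%) and none higher (background 3.12%). For anti-PD-1 against Control, 3 were lower in CPM (Dnajb9, Calr and Pdia4, background 7.33%) and none higher (3.45%), and with TMM factors Dnajb9 alone was lower (6.52%) and none higher (4.38%). For anti-CTLA-4 against anti-PD-1, Atf4 was lower (6.95%) and Dnajb9 higher (2.81%) in CPM, and with TMM factors Atf4 was lower (6.32%) and none higher (3.67%). Both comparisons with Control share its 3 libraries.

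The rest of the pathway was read from 5 lists of 104 genes that exclude the members, 85 of which passed the filter. edgeR called none of the 85 in any comparison. At an unadjusted p under 0.05 were 4 for anti-CTLA-4 against Control, 0 for anti-PD-1 against Control and 7 for anti-CTLA-4 against anti-PD-1. Of all 7858 tested genes, 889, 472 and 1106 were, in the same order. DESeq2 called 3, 3 and 5 of the 85, beside 574, 421 and 852 of all 7858 tested genes, and limma voom called none of the 85. In each comparison DESeq2 gave no adjusted p for 25 of the 85, so it could not call those. The median log2 fold change of the 85 was 0.08, -0.12 and -0.08 in the same order, and that of all 7858 tested genes 0.01, 0.07 and -0.05. With RLE factors the pathway medians were 1.11, 0.07 and 1.004 and those of all tested genes 0.56, 0.27 and 0.45, and with library totals -0.30, -0.30 and -0.23 beside -0.34, -0.12 and -0.21. In CPM, 10 of the 85 (11.8%, background 10.4%) lay lower and 3 (3.53%, background 1.57%) higher in every anti-CTLA-4 than in every Control library. For anti-PD-1 against Control, 7 lay lower (8.24%, background 7.33%) and 6 higher (7.06%, background 3.45%). For anti-CTLA-4 against anti-PD-1, 10 lay lower (11.8%, background 6.95%) and 5 higher (5.88%, background 2.81%). With TMM factors the same order gave 5 lower (background 8.23%) and 4 higher (3.12%), 6 lower (6.52%) and 7 higher (4.38%), and 5 lower (6.32%) and 4 higher (3.67%).

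Other ER chaperones and folding enzymes were, like the members, steady for a few genes and scattered for most. None of the 21 tested was called, and the median log2 fold change was 0.41 for anti-CTLA-4 against Control (1.78 with RLE factors, 0.11 with library totals) and -0.12 for anti-PD-1 against Control (0.07 with RLE factors, -0.31 with library totals). Canx, the membrane-bound partner of calreticulin, averaged 374 ± 156 CPM under anti-CTLA-4, 240.4 ± 93.2 CPM under anti-PD-1 and 269 ± 99.0 CPM in Control (SD, n = 3 each). In CPM its groups overlapped. With TMM factors every anti-CTLA-4 library (394, 485 and 455 TMM-scaled CPM) lay above every Control library (132, 270 and 252, background 3.12%). Every anti-PD-1 library (278, 167 and 220) also lay below the anti-CTLA-4 libraries (background 3.67%). Ero1l, the oxidase that recharges the disulfide isomerases, averaged 269.9 ± 58.3 CPM under anti-CTLA-4, 317 ± 186.5 CPM under anti-PD-1 and 434 ± 141 CPM in Control. P4hb and Pdia3, the prototype disulfide isomerase and its glycoprotein-specific relative, diverged in anti-CTLA-4 replicate 2, where P4hb had its highest level of 938 CPM and Pdia3 its lowest of 0.872 CPM.

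The stress sensors were detected but not evenly. Ern1 (IRE1) averaged 52.4 ± 46.0 CPM under anti-CTLA-4, 91.4 ± 16.8 CPM under anti-PD-1 and 74.0 ± 46.1 CPM in Control (SD, n = 3 each). Atf6 averaged 23.3 ± 28.8 CPM under anti-CTLA-4, 157 ± 142 CPM under anti-PD-1 and 43.7 ± 59.5 CPM in Control. Mbtps2, the protease that releases ATF6 from the membrane, was at 5 CPM or more in every library and averaged 176 ± 75.4 CPM under anti-CTLA-4, 248 ± 18.2 CPM under anti-PD-1 and 157 ± 118 CPM in Control. The anti-PD-1 libraries thus lay close together for Ern1 and Mbtps2 and far apart for Atf6. Creb3l2, an ER-anchored transcription factor, had 84.9, 490.5 and 82.2 CPM under anti-CTLA-4, 161.5, 0.0907 and 85.0 CPM under anti-PD-1, and 185, 326 and 139 CPM in Control. None of the 9 genes of this list was called. Their median log2 fold change was 0.71 for anti-CTLA-4 against Control, 0.90 for anti-PD-1 against Control and -0.58 for anti-CTLA-4 against anti-PD-1. With RLE factors these were 1.53, 1.13 and -0.75, and with library totals 0.016, 0.66 and -0.68, so the first came close to 0.

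In ER-associated degradation, 19 genes were tested and none was called. The median log2 fold change was -0.31 for anti-CTLA-4 against Control and -0.27 for anti-CTLA-4 against anti-PD-1, both positive with RLE factors (0.53 and 0.28), and 0.075 for anti-PD-1 against Control. Edem1, which hands misfolded glycoproteins to the degradation machinery, averaged 1301 ± 582 CPM under anti-CTLA-4, 1312 ± 279.6 CPM under anti-PD-1 and 1141 ± 205.5 CPM in Control (SD, n = 3 each). Its groups overlapped in CPM. With TMM factors every anti-PD-1 library (1394, 1283 and 1061 TMM-scaled CPM) lay above every Control library (773, 1040 and 977, background 4.38%). Its TMM-scaled mean under anti-CTLA-4 was 2220 ± 2310, with replicate 2 at 4886. Vcp, the ATPase that pulls substrates out of the membrane, had 309.8, 1781 and 93.2 CPM under anti-CTLA-4, 4.35, 0.544 and 189 CPM under anti-PD-1, and 349.5, 325.5 and 149.7 CPM in Control. Its fitted log2 fold change for anti-CTLA-4 against anti-PD-1 was 4.86 (SE 1.57, adjusted p 0.232 with edgeR), and it was called when genes with low counts were kept or when any of 6 libraries was left out, anti-CTLA-4 replicates 1 and 2 and anti-PD-1 replicate 1 not among them. The lectin gene Os9 averaged 142 ± 80.8 CPM under anti-CTLA-4, 206 ± 113 CPM under anti-PD-1 and 147 ± 107 CPM in Control.

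Of the genes of the ATF4 arm, 14 were tested and none was called. The median log2 fold change was 0.75 for anti-CTLA-4 against Control, -1.58 for anti-PD-1 against Control and 2.26 for anti-CTLA-4 against anti-PD-1, where Atf4 stood at -3.28. With RLE factors the medians were 2.13, -1.40 and 2.41, and with library totals 0.56, -1.70 and 2.16. Psat1, of serine synthesis, had 224, 508 and 109.5 CPM under anti-CTLA-4, 69.3, 30.1 and 0.321 CPM under anti-PD-1, and 257, 104.6 and 12.3 CPM in Control. Ppp1r15a (GADD34), which directs a phosphatase to eIF2α, averaged 149 ± 129 CPM under anti-CTLA-4, 21.5 ± 35.7 CPM under anti-PD-1 and 81.9 ± 65.9 CPM in Control (SD, n = 3 each). The amino acid transporter subunit gene Slc3a2 averaged 191.5 ± 172 CPM under anti-CTLA-4, 229 ± 147.5 CPM under anti-PD-1 and 347 ± 59.8 CPM in Control.

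Ddit4 (REDD1), an inhibitor of mTORC1 that stress and hypoxia induce, had 350.1, 452 and 478.5 CPM under anti-CTLA-4, 1157, 796 and 1179 CPM under anti-PD-1, and 498, 634 and 781 CPM in Control. Every anti-PD-1 library lay above every Control library in both scalings (background 3.45% in CPM, 4.38% in TMM-scaled CPM), at 997, 955 and 1000 TMM-scaled CPM against 422, 503.5 and 634.5. The anti-CTLA-4 libraries lay below Control in CPM (background 10.4%), but with TMM factors replicate 2 stood at 1122, above all others. The fitted log2 fold change was 0.92 (SE 0.81) for anti-PD-1 against Control, with an adjusted p of 0.9998 in edgeR's quasi-likelihood test.

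Translocation, glycosylation and retrieval genes at 5 CPM or more numbered 9 of 24 in anti-CTLA-4 replicate 2 and 17 to 21 in the other libraries. Of 22 tested none was called, and the median log2 fold change was -0.15 for anti-CTLA-4 against Control, -0.06 for anti-PD-1 against Control and -0.27 for anti-CTLA-4 against anti-PD-1, each positive with RLE factors (0.45, 0.16 and 0.58). Dad1, a subunit of the oligosaccharyltransferase, averaged 862.5 ± 111 CPM under anti-CTLA-4, 830.4 ± 232 CPM under anti-PD-1 and 786 ± 308 CPM in Control (SD, n = 3 each). Stt3a, a catalytic subunit of the same enzyme, averaged 336 ± 332 CPM under anti-CTLA-4, 156 ± 91.6 CPM under anti-PD-1 and 208 ± 62.4 CPM in Control. Sec63, of the translocon, averaged 459.7 ± 393 CPM under anti-CTLA-4, 356 ± 224 CPM under anti-PD-1 and 323 ± 90.5 CPM in Control. For these 3 genes the group means differed by less than the largest SD. Ssr2, which assists the translocon, had 197, 676 and 194.5 CPM under anti-CTLA-4, 126, 151 and 102 CPM under anti-PD-1, and 181, 90.2 and 57.4 CPM in Control. The anti-CTLA-4 values of Ssr2 lay above Control in both scalings (background 1.57% in CPM, 3.12% in TMM-scaled CPM), and its adjusted p for that comparison was 0.432 with edgeR.

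**Figure D4:**
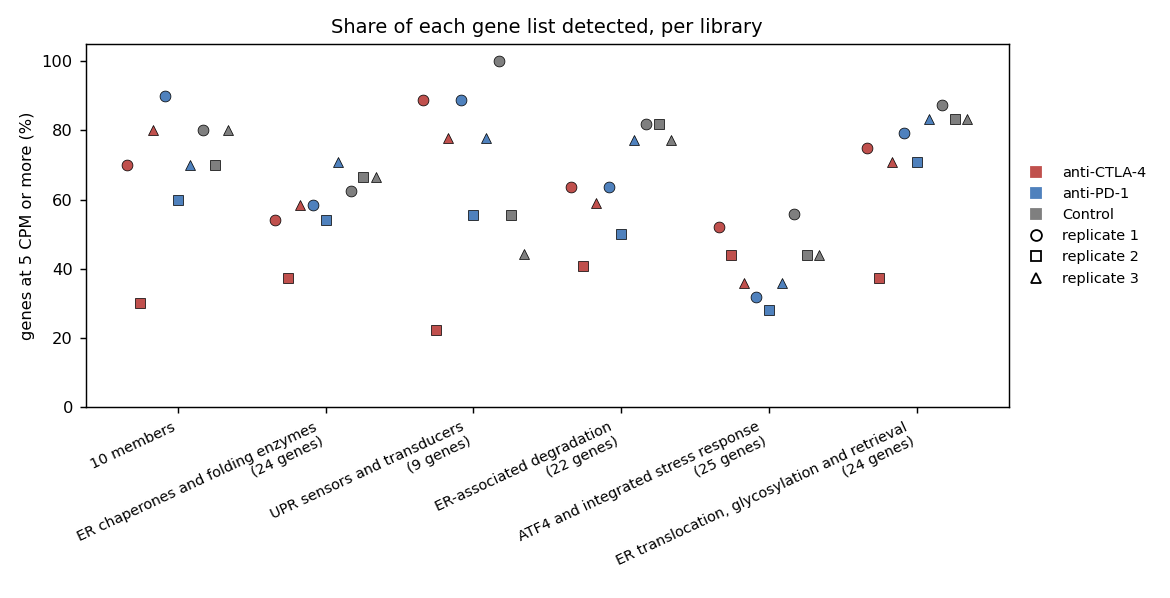
Share of the 10 members and of each pathway list at 5 CPM or more, in %, with 1 point per library, coloured by anti-CTLA-4, anti-PD-1 and Control and shaped by replicate number. Anti-CTLA-4 replicate 2 is the lowest point in 4 of the 5 lists and among the members.

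Detection over all 104 genes varied by library. At 5 CPM or more stood 66, 40 and 60 of the 104 in anti-CTLA-4 libraries, 63, 53 and 70 in anti-PD-1 libraries, and 77, 70 and 68 in Control libraries. Anti-CTLA-4 replicate 2 and anti-PD-1 replicate 2, which held the fewest genes of the whole table at that level, were also lowest here. Without anti-CTLA-4 replicate 2, 92 of the 104 passed the filter and none was called in any comparison.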

How the data were processed

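The authors deposited raw counts per gene symbol for 9 libraries, with no normalization. The submitters' processing notes name TopHat2, HTSeq, DESeq2 and the build GRCm38, and the sources used here give no versions, annotation or counting options. The deposited count table is labelled first strand, but the strand setting used in counting is not stated. Per the labels' protocols, sorted cells were lysed directly, and amplified libraries (Ovation single-cell kit, chosen for low RNA yield) were read in pairs. HTSeq summary entries name no gene and were left out: genes took 32.9% to 40.7% of a library's total, no feature 27.1% to 42.05%, not unique 24.3% to 31.1% and ambiguous 0.631% to 1.13%. All columns mapped to a sample (0 unmapped), by title.

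CPM is the deposited count per 1000000 gene counts. The limit for a count of 0 is 3 counts, 0.0723 to 0.1175 CPM, and covers counting error only, as reads carry no molecular identifiers. edgeR 4.0.16 (R 4.3.3) fitted the 9 libraries together, with no term but the group (quasi-likelihood test, robust, TMM factors, filterByExpr with a minimum count of 10), with Benjamini-Hochberg adjustment over 7858 genes and a threshold of 0.05. Approximate standard errors were obtained by dividing each change by the root of its F statistic. DESeq2 1.42.0 and limma 3.58.1 (voom with quality weights) were alternatives, as were other factors, filters, a replicate block and leaving out libraries. A run on simulated counts was also made, and its results are not given here. Nothing is read from it on how the fits behave at the spread of these libraries, a coefficient of variation within groups of 1.84. TMM-scaled CPM is CPM divided by the TMM factor.

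Loci and exon lengths come from GENCODE M21, promoters from RefSeq (GRCm38.p6). The members and lists were chosen with earlier results of these data known. Named beside the members are, per list, the 4 genes with the highest mean CPM, any called list gene, the 5 genes most like the members' mean, and fixed markers; genes named for motif matches, non-overlap or calls under an alternative fall outside that rule and were chosen after their values were seen. Some genes that the rule names are not reported here. Protein sequences were not used here.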

Additional observations from a re-analysis of the deposited data

Results flagged for a closer look

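Ddit4, an inhibitor of mTORC1 in the ATF4 list, moved in opposite directions in the antibody groups relative to Control when scaled by library total. Its mean was 427 CPM under anti-CTLA-4, 1044 CPM under anti-PD-1 and 637.8 CPM in Control (n = 3 each). All 3 anti-CTLA-4 libraries lay below, and all 3 anti-PD-1 libraries above, every Control library, as did 10.4% (lower, anti-CTLA-4) and 3.45% (higher, anti-PD-1) of all tested genes in each comparison alone. The difference between the antibody groups was not called: the fitted log2 fold change for anti-CTLA-4 against anti-PD-1 was -0.65 (SE 0.80), with an adjusted p of 0.917 in edgeR's quasi-likelihood test. Against Control the fitted change was 0.27 for anti-CTLA-4, the opposite sign to the CPM values, and 0.92 for anti-PD-1. The TMM factor of 0.403 in anti-CTLA-4 replicate 2 puts that library at 1122 TMM-scaled CPM. The macrophage marker sum was also highest in that library, with 6 of the 12 markers at their highest, and their part in its Ddit4 level was not tested.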

How the results depend on the processing

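Over all genes, the calls for anti-CTLA-4 against Control, anti-PD-1 against Control and anti-CTLA-4 against anti-PD-1 (29, 6 and 65 with edgeR) were 574, 421 and 852 with DESeq2, 0, 0 and 0 with RLE factors (1118, 511 and 1261 at an unadjusted p under 0.05), 0, 0 and 6 with library totals only (697, 414 and 884 unadjusted), and 0, 2 and 0 with limma voom (550, 553 and 561 unadjusted). They were 64, 2 and 98 with no filter on low counts, 17, 3 and 38 with at least 5 CPM in 3 libraries, and 1, 2 and 16 without anti-CTLA-4 replicate 2 and anti-PD-1 replicate 2, an alternative chosen after seeing the data. Leaving out each replicate in turn gave 0 to 79, 0 to 5 and 6 to 145 calls, and without anti-CTLA-4 replicate 2 alone 0, 1 and 6. Higher and lower calls split 29 to 0, 3 to 3 and 64 to 1 with edgeR, 172 to 402, 130 to 291 and 359 to 493 with DESeq2, and 5 to 1 in the last comparison with library totals. In that comparison they split 0 to 6 without anti-CTLA-4 replicate 2, and 9 to 7 without both replicate 2 libraries. RLE factors put the median log2 fold change of all genes at 0.56, 0.27 and 0.45, and library totals at -0.34, -0.12 and -0.21, where TMM gave 0.01, 0.07 and -0.05. The cause was not tested.

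Of the other pathway genes, DESeq2 called 3, 3 and 5 where edgeR called 0 in each comparison, and gave no adjusted p for 25 of 85. With no filter on low counts 1 was called for anti-CTLA-4 against anti-PD-1 (Vcp). Leaving out each replicate gave 0 to 0, 0 to 1 and 0 to 1, each time Vcp. The other settings called none. The 27 fitted member fold changes had 456 alternative values, of which 423 lay within 1 SD of the main value and 33 did not. The SD is that of the gene's log2 CPM between libraries within groups. It is wide for genes near 0 in some libraries, so lying within it does not show a stable value. Dnajb9 for anti-CTLA-4 against Control ranged from -9.04 to -0.565. Of the 27, 15 had the same sign in every setting, among them Hspa5 in all 3 comparisons and Pdia4 against Control in both, and 12 had another sign in at least 1. Hspa5 against Control ranged from 0.39 to 4.80 for anti-CTLA-4, and Pdia4 from -3.04 to -1.29.

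The replicate numbers showed no sign of pairing the mice: the deviations of same-numbered libraries from their group means correlated at -0.035 to 0.018 over 9 pairs, with 0 above 0.1. At so wide a spread between libraries these correlations cannot exclude a weak shared effect. With the replicate block 10, 1 and 12 genes were called, and 0 of the other pathway genes in each comparison. Depth limits only levels near 0, as 3 counts are 0.0723 to 0.1175 CPM, and the coefficient of variation between libraries of a group was 1.84.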

Other observations

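Each of the 5 pathway lists was split in the library where Atf4 itself was nearly absent. Of the 25 genes of the ATF4 list, 7 were at their highest there and 13 were below 1 CPM. Below 1 CPM there were also 14 of 24 ER chaperone genes, 7 of 9 sensor genes, 12 of 22 degradation genes and 15 of 24 translocation genes. In the same order, 3, 1, 3 and 3 were at their highest. The matching shares of all tested genes are not given here. In anti-CTLA-4 replicate 2, with Atf4 at 0.141 CPM, the pseudokinase gene Trib3 stood at 241.9 CPM, the transcription factor genes Atf3 and Atf5 at 64.8 and 12.7 CPM, and Chac1, which degrades glutathione, at 64.7 CPM. In the other 8 libraries Trib3 reached at most 53.7 CPM (Control replicate 1), Chac1 38.6 CPM (anti-PD-1 replicate 1), Atf5 6.74 CPM (Control replicate 3) and Atf3 0.0328 CPM, which is 1 count. Of the ATF4 list, Asns stood at 0.141 CPM in anti-CTLA-4 replicate 2, Aars at 0.1125 CPM and Phgdh at 0.0281 CPM, and Slc7a11, Sesn2, Vldlr and Xpot at 0. The genes named here were picked after their values were seen, and each value rests on 1 mouse, in the library with the highest macrophage marker sum. The part of those markers in these levels was not tested.

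Several other folding and stress genes did not overlap between groups in either scaling, and the 3 given here were picked from them after their values were seen. Of all tested genes, 10.4% lay lower and 1.57% higher under anti-CTLA-4 than in Control in CPM (8.23% and 3.12% in TMM-scaled CPM). Under anti-PD-1 7.33% lay lower than in Control in CPM (6.52% TMM-scaled), and under anti-CTLA-4 2.81% lay higher than under anti-PD-1 (3.67% TMM-scaled). Among the other list genes, Dnajb11 and Erp44 lay lower under anti-CTLA-4 than in Control in both scalings, as Nploc4 did and opposite to Hyou1 and Cebpg. Cnpy2, Syvn1 and Sec61a1 lay higher under anti-PD-1 than in Control in both scalings, opposite to Nploc4 and Cebpg. Hyou1, an ER chaperone of the Hsp110 type, had 166, 296 and 173 CPM under anti-CTLA-4, 64.3, 3.78 and 33.7 CPM under anti-PD-1, and 110.5, 15.0 and 64.1 CPM in Control. Cebpg, a partner of ATF4, had 64.0, 92.7 and 90.6 CPM under anti-CTLA-4, 9.28, 0.0604 and 15.0 CPM under anti-PD-1, and 56.2, 20.7 and 26.1 CPM in Control. Both were thus highest in the anti-CTLA-4 libraries, and Cebpg was lowest in the anti-PD-1 libraries. Nploc4, the cofactor that brings VCP to the ER membrane, had 0.0328, 0.0281 and 3.09 CPM under anti-CTLA-4, 43.4, 0.0604 and 39.5 CPM under anti-PD-1, and 139, 168 and 94.75 CPM in Control. None of the 3 was called by edgeR's quasi-likelihood test in any comparison, and DESeq2 called Nploc4 for anti-CTLA-4 against Control (adjusted p 0.0140).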
